A study of Homo sapiens with 26 samples.

Results

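The 10 genes of squamous epithelium followed here, keratins left out, are TP63, SOX2, TRIM29, SFN, IVL, SPRR1B, SPRR3, LY6D, FGFBP1 and SERPINB3. They were chosen by name, with earlier results of these data known, and are 10 of the 41078 genes in the table. Their mRNA was measured in single cell-derived cell lines (SCDCLs), each grown from 1 cell of an established line of pancreatic ductal adenocarcinoma (PDAC), with 1 library per SCDCL and no repeat of any. Of the 26 libraries, 12 are labelled BxPC3, the line described as classical, and 14 are labelled Panc1, here Panc-1, the line described as basal-like. The sample labels give gemcitabine as the treatment of all 26, whereas the methods describe this nucleoside analog only for separate viability assays, and no untreated group is labelled. Every library stands for 1 clone, so p-values here are set against the spread between libraries. That spread holds differences between clones and between cultures together.

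Squamous epithelium, the lining of skin and of the oesophagus, is built from basal cells that depend on the transcription factor p63, the product of TP63. As these cells move outward they make involucrin and the small proline-rich proteins, which transglutaminases link into the cornified envelope, a tough layer under the cell membrane. Normal pancreatic duct does not carry this program, but part of the PDACs called basal-like or squamous express p63 and some of the genes below. SOX2 is a transcription factor that acts beside p63 in squamous tumours. TRIM29 belongs to the tripartite motif family and is made in basal cells of stratified epithelium. SFN encodes 14-3-3σ, which holds back the cell cycle after DNA damage and is abundant in stratified epithelium.

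The libraries were divided at 1 TPM of SMAD4 (TPM, transcripts scaled to a fixed total per library after allowing for their length), since this gene went against many of the labels. SMAD4 transduces signals of transforming growth factor β and is a gene that BxPC3 is known to have lost and Panc-1 to have kept. It lay between 0 and 0.0440 TPM in 12 libraries, of which 5 were labelled BxPC3 and 7 Panc-1, and between 28.1 and 52.2 TPM in 14, of which 7 carried each label. The former are called SMAD4-low and the latter SMAD4-high libraries. Vimentin mRNA, a mesenchymal marker, was at 1.42 to 73.2 TPM in the SMAD4-low and 3047 to 4526 TPM in the SMAD4-high libraries, and E-cadherin mRNA (CDH1), an epithelial marker, at 90.8 to 198 and 0.338 to 7.74 TPM. CDKN2A, which both lines are known to lack, was at 0 in all 26. Totals ran from 27035724 to 34945608 estimated counts. No library was moved between labels, and the SMAD4 sets, made from measured values, were described and not tested against each other.

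Promoters are shown for the members in which an AP-1 motif was found, since the envelope genes among them lie side by side and were seen in the same libraries. RefSeq (GRCh38.p14) gave the 250 bases before the annotated start for 8 members. AP-1 is the dimer of JUN and FOS proteins, known to bind promoters of envelope genes. The motifs reported here, searched on both strands, were AP-1 (TGANTCA), the TATA box (TATAAA) and the GC box (GGGCGG). Capitals below mark AP-1 and TATA motifs, and each sequence reads 5′ to 3′ toward the start of its gene.
SFN (chr1:26862899-26863148, plus strand): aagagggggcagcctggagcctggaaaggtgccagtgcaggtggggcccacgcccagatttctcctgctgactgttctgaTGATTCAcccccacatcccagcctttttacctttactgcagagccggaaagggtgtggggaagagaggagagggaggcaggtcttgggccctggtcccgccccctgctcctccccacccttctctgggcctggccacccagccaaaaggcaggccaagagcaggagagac
IVL (chr1:152908296-152908545, plus strand): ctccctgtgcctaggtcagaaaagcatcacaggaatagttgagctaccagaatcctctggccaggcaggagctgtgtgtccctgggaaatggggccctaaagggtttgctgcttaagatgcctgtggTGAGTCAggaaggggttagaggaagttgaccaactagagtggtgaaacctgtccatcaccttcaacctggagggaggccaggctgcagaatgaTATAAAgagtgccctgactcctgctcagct
SPRR3 (chr1:153001499-153001748, plus strand): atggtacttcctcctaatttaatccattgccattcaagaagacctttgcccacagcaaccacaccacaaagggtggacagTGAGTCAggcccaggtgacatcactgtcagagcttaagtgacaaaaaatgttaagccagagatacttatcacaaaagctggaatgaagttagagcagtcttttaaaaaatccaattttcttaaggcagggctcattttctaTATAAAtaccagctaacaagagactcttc
SPRR1B (chr1:153030953-153031202, plus strand): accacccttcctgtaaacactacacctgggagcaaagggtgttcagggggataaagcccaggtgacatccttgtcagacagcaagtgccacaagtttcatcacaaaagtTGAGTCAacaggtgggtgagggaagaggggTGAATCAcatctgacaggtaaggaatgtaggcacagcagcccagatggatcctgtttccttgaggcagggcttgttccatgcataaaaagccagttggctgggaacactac

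AP-1 motifs were present in 4 of the 8 promoters, against 6.57% of 35116 RefSeq promoters of the same length. The members were chosen with earlier results of these data known, and SPRR3 and SPRR1B are related genes. These shares are therefore a description and no test. SPRR1B held 2 AP-1 motifs, at 141 to 135 and at 111 to 105 bases before the start, and SFN, IVL and SPRR3 held 1 each. The TATA box was found in IVL and SPRR3, at 30 to 25 and 29 to 24 bases before the start, against 10.7% of promoters. GC boxes lay in the promoters of SFN and SOX2 (42.6% of promoters). TP63, FGFBP1 and SERPINB3 held none of the 3 motifs. For TP63 only the window before the first base of the gene was searched, so this does not cover any start further inside it. No motif overlapped another in these windows, and a match of letters describes the sequence and not a bound site.

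Of the members 9, all but SOX2, were higher in every SMAD4-low library than in every SMAD4-high one, and no member was lower. SERPINB3 was separated in library 5 by only 2.23 estimated counts, under a floor of 3, and SPRR3 by as few as 4.57, against 0. Among the 20251 genes with a mean of at least 0.1 TPM, which takes in all 10 members, 12.5% were separated in this direction. Of the 14763 genes with a mean of at least 1 TPM, 14.5% were higher and 15.8% were lower in the SMAD4-low libraries without overlap. Of the members 7 reached that mean, and 6 of them were higher without overlap. Since the members were chosen with earlier results of these data known, these shares are a description and no test. For each gene the sets were compared by the difference in log2(median TPM + 1), SMAD4-low minus SMAD4-high. Its median was 2.49 over the 10 members and -0.02 over the genes with a mean of at least 1 TPM. In bulk RNA, fewer cells that express a gene and less of its RNA per cell cannot be told apart, also within a clone.

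**Figure D1:**
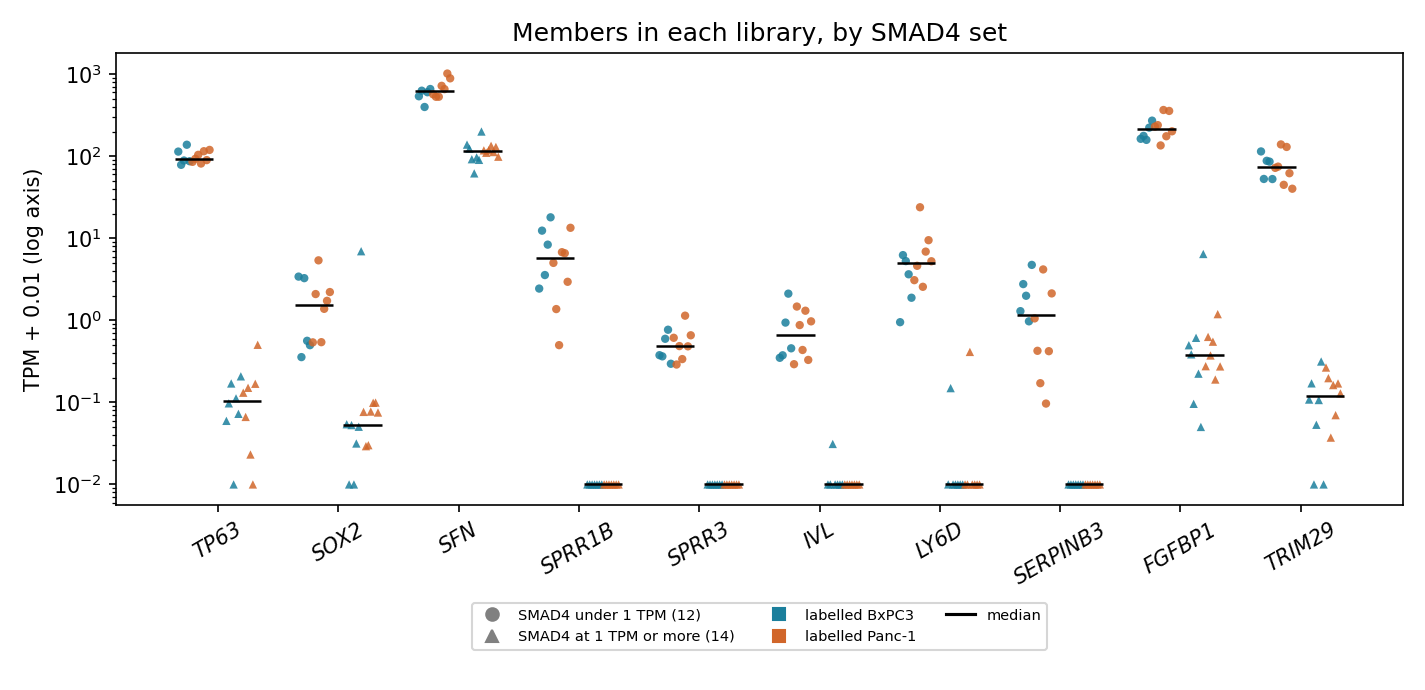
TPM plus 0.01 on a log axis for the 10 members, 1 point per library, with SMAD4-low libraries as circles, SMAD4-high libraries as triangles, the label in colour and the median of each set as a bar. SFN alone was above 60 TPM in both sets, and 1 SMAD4-high library stood at 6.95 TPM of SOX2, above all SMAD4-low ones.

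TP63 (chr3:189631389-189897276 in GRCh38, as are all gene positions here, from GENCODE 44) ranged from 78.7 to 138 TPM in the SMAD4-low libraries, with a median of 91.5. In the SMAD4-high libraries it ran from 0 to 0.494 TPM with a median of 0.0947, at most 25.9 estimated counts. The lowest SMAD4-low library was 159 times the highest SMAD4-high one. TP63 was thus present in every SMAD4-low library, and under both labels: the 5 libraries labelled BxPC3 had 78.7 (library 21), 87.1 (26), 88.8 (24), 114 (16) and 138 TPM (25), and the 7 labelled Panc-1 had 81.6 to 120 TPM. The highest was only 1.76 times the lowest.

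TRIM29 (chr11:120111286-120185529) followed the same division, at 40.2 to 140 TPM (median 73.5) against 0 to 0.305 TPM (median 0.109). Its lowest SMAD4-low value was 132 times its highest SMAD4-high value. SMAD4-low libraries labelled BxPC3 were at 52.8 (26), 52.9 (21), 86.1 (25), 88.1 (24) and 115 TPM (16), and those labelled Panc-1 at 40.2 to 140 TPM with a median of 72.2. Libraries 3 and 5, both labelled Panc-1, were highest, at 140 and 130 TPM, and libraries 7 and 4 with the same label were lowest, at 40.2 and 44.9 TPM.

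SOX2 (chr3:181711925-181714436, a gene of 1 exon) was low throughout, at 0.346 to 5.38 TPM (median 1.55) in the SMAD4-low libraries, which is 15.8 to 259 estimated counts. Of the SMAD4-high libraries 13 had at most 0.0896 TPM, and library 23, labelled BxPC3, had 6.95 TPM from 347 estimated counts. The sets overlapped through that library alone. Leaving it out separates SOX2 by construction, so the 10 of 10 that results adds no support. The share of all genes without that library is not given here. Values in the SMAD4-low libraries labelled BxPC3 fell into a low and a high part, 0.346 (21), 0.489 (26) and 0.553 TPM (25) against 3.26 (24) and 3.41 TPM (16). Those labelled Panc-1 ranged from 0.529 TPM in library 1 to 5.38 TPM in library 3.

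SFN (chr1:26863149-26864456) had the highest median of the 10 genes in both sets and was the only member with a median of at least 1 TPM in each. The SMAD4-low libraries had 399 to 1020 TPM (median 617) and the SMAD4-high libraries 61.9 to 200.3 TPM (median 115), a ratio of medians of 5.35. The nearest values of the sets, 399 TPM in library 24 and 200.3 TPM in library 23, both labelled BxPC3, were 1.99-fold apart.

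The cornified envelope members were present at low levels in the SMAD4-low libraries and at or near 0 in the SMAD4-high ones. SPRR1B (chr1:153031203-153032900) encodes cornifin B, a small proline-rich precursor of the envelope. It ranged from 0.489 to 18.02 TPM (median 5.79; 4.24 to 177 estimated counts) and was at 0 in all 14 SMAD4-high libraries. A floor of 3 counts in a library equals 0.309 to 0.377 TPM there, so the median was at least 15.3-fold higher in the SMAD4-low libraries. Those labelled BxPC3 had 2.43 (16), 3.56 (24), 8.37 (25), 12.4 (21) and 18.02 TPM (26), and those labelled Panc-1 had 0.489 (3) to 13.4 TPM (7) with a median of 5.01.

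SPRR3 (chr1:153001747-153003856), which encodes a related protein of oral and oesophageal epithelium, was at 0.280 to 1.13 TPM (median 0.474), only 4.57 to 16.8 estimated counts, and at 0 in all SMAD4-high libraries. With the same floor, at 0.190 to 0.232 TPM, its median was at least 2.04-fold higher. IVL (chr1:152908546-152911886), the gene of involucrin, the scaffold on which the envelope is assembled, was at 0.282 to 2.11 TPM (median 0.656; 14.7 to 98.0 estimated counts). A single SMAD4-high library had 0.0212 TPM of IVL, about 1 estimated count, and the other 13 had 0. All 3 genes were therefore detected in each of the 12 SMAD4-low libraries, but IVL and SPRR3 had medians under 1 TPM.

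These genes are neighbours in the epidermal differentiation complex. From IVL to SPRR1B the annotation has 6 protein-coding genes in 124355 bases, in the order IVL, SPRR5, SPRR4, SPRR1A, SPRR3 and SPRR1B, all on the plus strand. SPRR1A was above 0 in 11 of the 12 SMAD4-low libraries, at up to 18.9 TPM from only 22.2 estimated counts (library 26). Libraries 2, 6 and 7 had 1.03, 0.916 and 1.92 estimated counts of it, under the floor of 3. SPRR4 and SPRR5 were above 0 in 1 library each, at 0.0785 and 0.0676 TPM. In the SMAD4-high libraries IVL was the only one of the 6 above 0. SPRR1A is a near copy of SPRR1B, and 15.6% of the 31-base words in SPRR1B transcripts also occur in SPRR1A, so part of their reads may be split between them.

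SERPINB3 (chr18:63655197-63661893), also called squamous cell carcinoma antigen, encodes an inhibitor of lysosomal cysteine proteases. It ran from 0.0868 TPM (2.23 estimated counts, library 5) to 4.73 TPM (131 estimated counts, library 26) in the SMAD4-low libraries, with a median of 1.17, and was at 0 in all SMAD4-high ones. The median was at least 8.71-fold higher, with a floor of 0.110 to 0.134 TPM. All 5 libraries labelled BxPC3 were near or above 1 TPM, at 0.963 (25), 1.29 (16), 1.98 (24), 2.76 (21) and 4.73 TPM (26). Of those labelled Panc-1, library 4 had 4.17 TPM and library 7 had 2.12 TPM, whereas libraries 5, 3, 6 and 2 had 0.0868, 0.162, 0.411 and 0.416 TPM. Its copy SERPINB4 shares 40.5% of the 31-base words of SERPINB3, and 66.1% of them occur in some other gene, so the level is uncertain by the share of reads assigned to the copy. SERPINB4 was at 0 to 1.22 TPM in the SMAD4-low libraries and at 0 in the others.

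LY6D encodes a surface protein of the LY6 family, held by a lipid anchor and found on keratinocytes. Its SMAD4-low libraries had 0.940 to 23.9 TPM (median 4.93; 9.83 to 281 estimated counts). It was at 0 in 12 SMAD4-high libraries, and the highest had 0.402 TPM from 4.87 estimated counts. The libraries labelled BxPC3 had 0.940 (16), 1.88 (26), 3.64 (25), 5.27 (24) and 6.23 TPM (21), and those labelled Panc-1 had 2.56 to 23.9 TPM (median 5.25). Library 3, labelled Panc-1, was at 23.9 TPM and the next, library 6, at 9.48 TPM. The transcripts of LY6D shared 10.5% of their 31-base words with another annotated gene.

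FGFBP1 (chr4:15935577-15938740) encodes a secreted carrier that frees fibroblast growth factors from the matrix. It was abundant in the SMAD4-low libraries, at 136 to 367 TPM (median 212), and low in the SMAD4-high ones, at 0.0402 to 6.43 TPM (median 0.369). The lowest of the former was 21.1 times the highest of the latter, which again was library 23. Those labelled BxPC3 stood at 159 (24), 163 (16), 177 (21), 224 (25) and 272 TPM (26), and libraries 4 and 6, labelled Panc-1, were highest at 367 and 357 TPM.

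By median TPM, a scale that allows for transcript length, the SMAD4-low order was SFN, FGFBP1, TP63, TRIM29, SPRR1B, LY6D, SOX2, SERPINB3, IVL and SPRR3. SFN was above FGFBP1, and TRIM29 above SPRR1B, with no overlap of their ranges. All other neighbours in this order overlapped. FGFBP1 was nevertheless above TP63 within each of the 12 libraries, TP63 above TRIM29 in 9, LY6D above SOX2 in 11 and IVL above SPRR3 in 9. SPRR1B and LY6D changed places freely, with SPRR1B higher in 7 of 12. SOX2 was above SERPINB3 in 7, and SERPINB3 above IVL in 8.

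Among the SMAD4-low libraries the members differed widely in how much they varied. The SD of log2(TPM + 1) was compared with that of the 14095 genes with a median of at least 1 TPM, whose median SD was 0.297. SPRR1B had an SD of 1.1 (percentile 98.4), LY6D 0.946 (97.5), SERPINB3 0.806 (95.9) and SOX2 0.748 (95.1). TRIM29 followed with 0.583 (89.9) and FGFBP1 with 0.45 (79.5). SFN, at 0.358 (64.9), and TP63, at 0.253 (36.4), varied about as much as most genes or less. IVL (0.421) and SPRR3 (0.217) had medians under 1 TPM and no percentile.

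The deposited table also holds 30 kallisto estimates per library from redrawn reads, whose spread measures the error of counting and of assigning reads to transcripts. Their SD was 0.173 for SPRR1B, 0.148 for LY6D, 0.12 for SERPINB3 and 0.0886 for SOX2. The SDs between libraries were 6.4, 6.38, 6.69 and 8.44 times these values. For SPRR3 the SD of the redrawn estimates was 0.167 and the ratio 1.3, so its variation between clones was hardly above the error of measurement. Library 26 was the highest and library 3 the lowest for SPRR1B, 36.9-fold apart. Library 3 was also the highest for LY6D, SOX2 and TRIM29 and the lowest for FGFBP1.

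**Figure D2:**
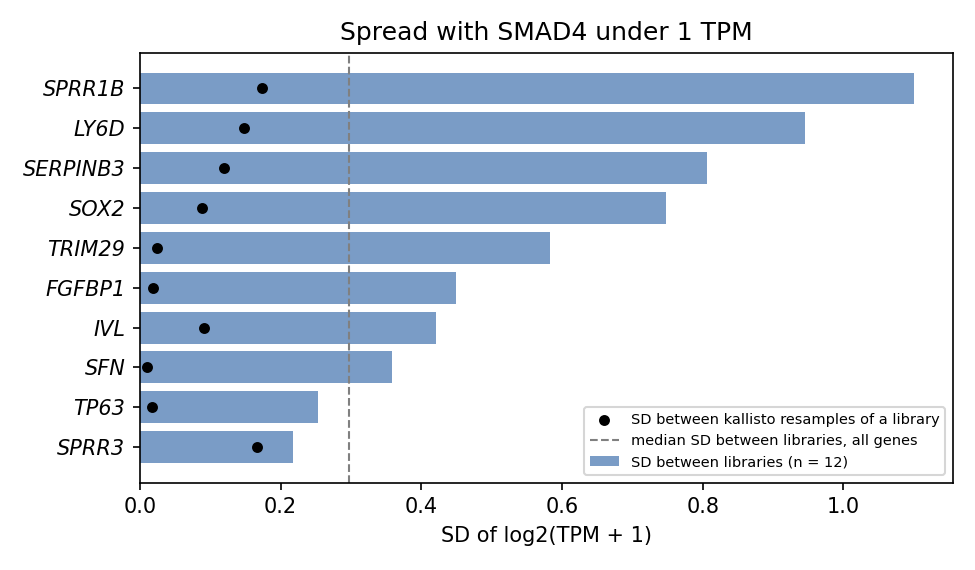
SD of log2(TPM + 1) across the 12 SMAD4-low libraries for each member (bars), with the SD between kallisto estimates from redrawn reads of a library (points) and the median SD of all genes (dashed line). SPRR1B, LY6D, SERPINB3 and SOX2 lie far to the right of the line at 0.297, and TP63 and SPRR3 lie to its left.

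In the SMAD4-high libraries only SFN had a median of at least 1 TPM. Its SD there was 0.382, at percentile 71.1 of 13532 genes, with an SD of 0.026 between the redrawn estimates. The highest library, 23, was 3.24 times the lowest, 19, both labelled BxPC3. SFN in the SMAD4-high libraries labelled Panc-1 stayed between 98.8 and 134 TPM.

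The clones did not order the members alike. Pearson's r of log2(TPM + 1) was computed for the 28 pairs of the 8 members with a median of at least 1 TPM in the 12 SMAD4-low libraries, 14 positive and 14 negative. No pair passed a Benjamini-Hochberg adjusted p of 0.05 in two-sided permutation tests, the smallest being 0.131, and 7 had an unadjusted p under 0.05. SPRR1B was negatively related to SOX2, with r = -0.74 (permutation p = 0.0065, adjusted 0.131) and Spearman's rho = -0.685 (permutation p = 0.0166, adjusted 0.104). Without the 2 libraries farthest from the median of SOX2, r was -0.553. SERPINB3 and TRIM29 gave r = -0.723 (permutation p = 0.00937, adjusted 0.131) and rho = -0.727 (permutation p = 0.00954, adjusted 0.104), and r = -0.631 without the 2 farthest libraries. These relations did not pass the correction over 28 pairs and are given as values.

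The r of SPRR1B and SERPINB3 was positive, at 0.685 (permutation p = 0.0153, adjusted 0.141) and rho = 0.664. TRIM29 had negative r with both, and its r with SPRR1B was -0.649 (permutation p = 0.0233, adjusted 0.141). The remaining 3 of the 7 were FGFBP1 with TRIM29 at r = -0.643 (permutation p = 0.0256, adjusted 0.141), SFN with FGFBP1 at r = 0.62 (permutation p = 0.0303, adjusted 0.141) and LY6D with SERPINB3 at r = -0.57 (permutation p = 0.0491, adjusted 0.172). Without the 2 farthest libraries, r for SFN and FGFBP1 fell to 0.352, so that relation rests partly on them. Within the 7 libraries labelled Panc-1 the r of these pairs kept its sign, from -0.839 for SERPINB3 and TRIM29 to 0.612 for SPRR1B and SERPINB3, and the 5 labelled BxPC3 are too few for a correlation.

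TP63 was related to none of the other 7 members in this way. Its r ran from -0.426 with SERPINB3 to 0.417 with TRIM29, and was -0.0345 with SPRR1B and 0.0178 with LY6D. Without the 2 libraries farthest from the median of TP63, r over the 10 that remained was 0.889 with TRIM29 (permutation p = 0.00092, adjusted 0.0258), 0.65 with SOX2 (permutation p = 0.0454) and -0.649 with SERPINB3 (permutation p = 0.0455). These 3 relations of TP63 thus depend on which libraries enter. In the SMAD4-high libraries no pair could be formed, since SFN alone reached a median of 1 TPM.

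**Figure D3:**
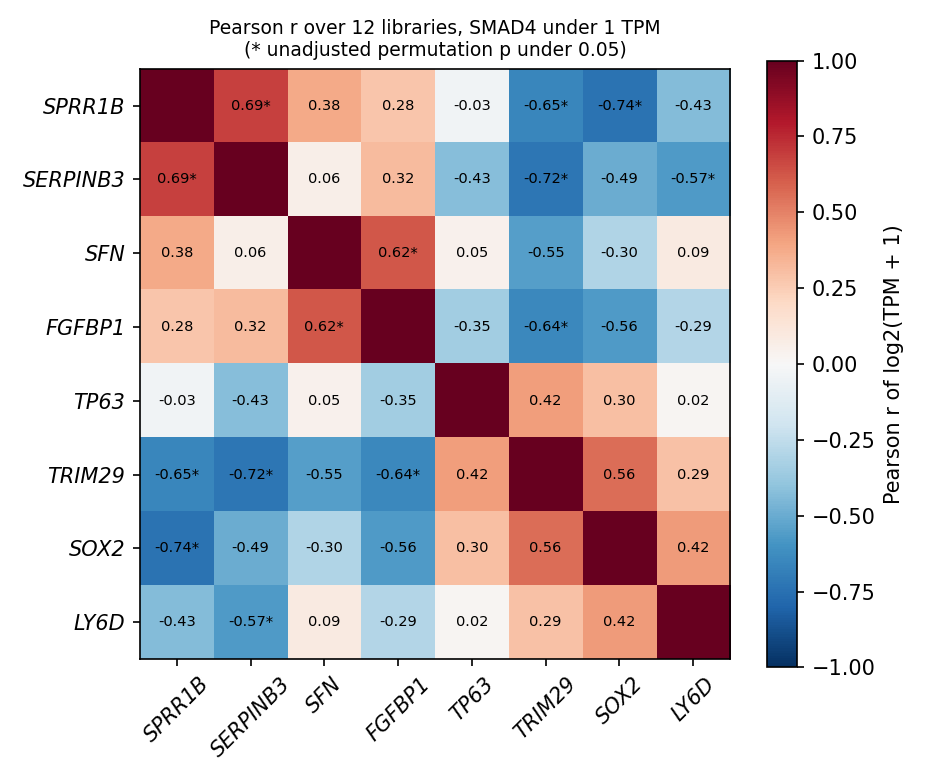
Pearson's r of log2(TPM + 1) over the 12 SMAD4-low libraries for each pair of the 8 members with a median of at least 1 TPM, with red for positive and blue for negative values and an asterisk for an unadjusted permutation p under 0.05. SPRR1B and SERPINB3 (0.685) and SFN and FGFBP1 (0.62) are the positive pairs so marked, and the other 5 marked pairs are negative.

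**Figure D4:**
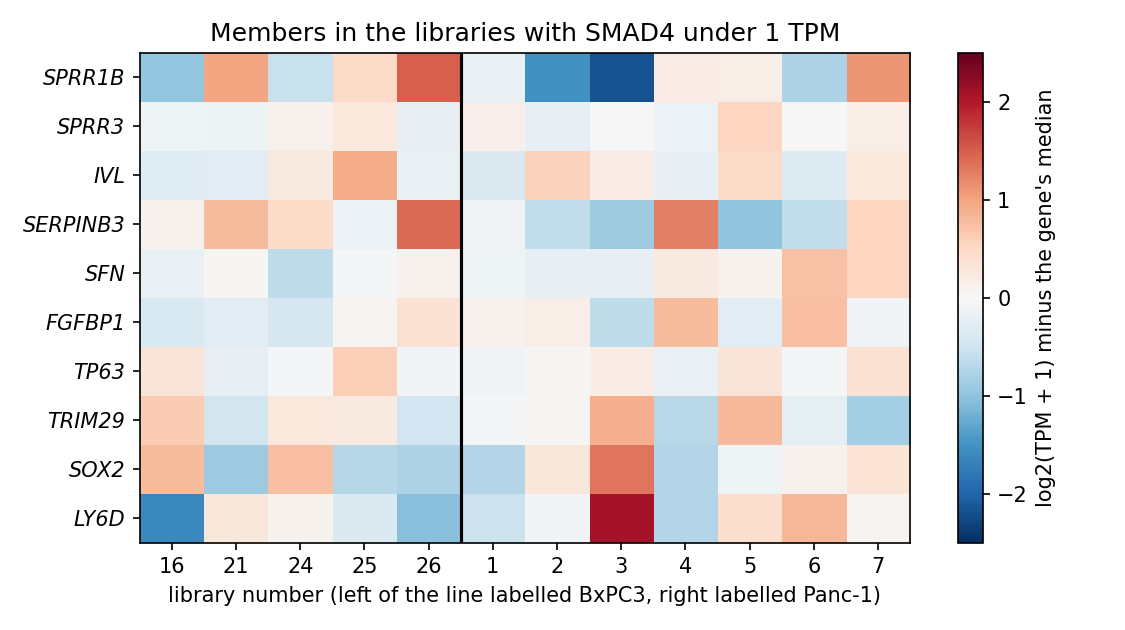
Each member's log2(TPM + 1) minus its median over the 12 SMAD4-low libraries, with library numbers in columns and the labels on either side of the line. Library 3 is the lowest for SPRR1B (0.489 TPM) and the highest for LY6D (23.9 TPM), and library 26 is the highest for SPRR1B (18.02 TPM) and SERPINB3 (4.73 TPM).

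The genes whose pattern over the 12 SMAD4-low libraries was most like that of each member were taken from 13242 named genes by Pearson's r, as a description. Picking the highest r among 13242 genes over only 12 libraries gives large values even for unrelated genes. Whether the r listed here and in the next paragraph exceed that level was not tested. The genes named are therefore not shown to be related to the members. Closest to TP63 were EPS8 (r = 0.949), ARHGEF18 (0.935) and DCAF11 (0.906), and to SOX2 PDGFC (0.908), FIGN (0.905) and ROCK2 (0.894). SPRR1B was nearest to F11R (0.926), which encodes a tight junction protein, to another clade B serpin, SERPINB1 (0.909), and to CLMP (0.905). SERPINB3 was nearest to TUBA1A (0.953), CCN3 (0.953) and CD44 (0.937), the last encoding the hyaluronan receptor and present at 370 to 1380 TPM.

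For FGFBP1 the nearest genes were SLC36A4 (0.932), PSG1 (0.917) and FGF5 (0.897), a growth factor gene at 0.475 to 2.28 TPM. TRIM29 was nearest to ATP5F1C (0.913), NPRL3 (0.886) and CARNMT1 (0.882), SFN to SMIM7 (0.896), GPX1 (0.894) and TMEM14A (0.882), and LY6D to MYL6B (0.884), COMMD6 (0.876) and the pseudogene VN1R84P (0.875). No member was among the 3 genes nearest to another member. In the 14 SMAD4-high libraries SFN was nearest to LTA4H (0.87), MRPL41 (0.865) and CAMSAP1 (0.826), of 12627 genes. These values were picked in the same way and were not tested either.

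Genes known as p63 targets, a list that takes in basal keratins and adhesion genes, were divided by SMAD4 in the same direction as the members. This list and those below were chosen with earlier results of these data known. Of its 23 genes, 16 were higher in the SMAD4-low libraries without overlap, 0 were lower and 7 overlapped. The median difference in log2(median TPM + 1) was 4.83. Of the 21 with a mean of at least 1 TPM, 16 were higher, beside 14.5% of all genes at that level, and 0 were lower, beside 15.8%. Among them KRT5, a keratin of basal cells, was at 702 to 3050 TPM against 0 to 0.222 TPM. ITGA6, an integrin chain that anchors basal cells to the basement membrane, was at 287 to 645 against 51.3 to 138 TPM. PERP, which encodes a desmosomal protein, overlapped, at 314 to 631 and 308 to 951 TPM. Of 11 squamous keratins 6 were higher and 5 overlapped (5 and 4 among the 9 with a mean of at least 1 TPM), and KRT17 reached 1860 to 5820 TPM against 0 to 0.831 TPM.

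Other transcription factors of squamous and epidermal cells went partly with the members. Of 26, 12 were higher, 1 was lower and 13 overlapped, with a median difference of 0.90. Among the 20 with a mean of at least 1 TPM, 8 were higher, 1 was lower and 11 overlapped, beside 14.5% of all genes higher and 15.8% lower. KLF5 was at 88.0 to 278 TPM against 0.0998 to 1.30 TPM, and EHF at 100.1 to 176 against 0 to 0.590 TPM. GRHL3, a factor of epidermal barrier formation, was the 1 that was lower, at 0.0999 to 2.31 TPM against 2.76 to 36.5 TPM, and it was named after its value had been seen.

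Of 28 other cornified envelope genes, 3 were higher without overlap, 0 were lower and 25 overlapped, with a median difference of 0.08. Only 11 of them had a mean of at least 1 TPM, and of these 3 were higher and 8 overlapped, beside 14.5% of all genes higher, so most of the 25 were low in both sets. The 3 were CSTA, the protease inhibitor cystatin A (139 to 281 against 0 to 10.5 TPM), PI3, the elastase inhibitor elafin (11.3 to 927 against 0 to 0.393 TPM), and SCEL, sciellin (11.4 to 65.6 TPM against 0 in all). Periplakin, PPL, overlapped, at 75.6 to 180 and 29.1 to 120.0 TPM. SPRR1A counts as overlapping only because library 3 was at 0. Its median was 7.76 TPM in the SMAD4-low libraries, from few counts, and it was at 0 in all SMAD4-high ones. Of the markers of terminally differentiated keratinocytes 5 of 5 overlapped between the sets, but only 1 had a mean of at least 1 TPM. Their summed TPM was 56.3 to 86.0 in the SMAD4-low and 65.0 to 117 in the SMAD4-high libraries. KRT10 alone was at 80.9 TPM in library 23 and at 64.8 to 116 TPM in the other SMAD4-high libraries. LORICRIN was above 0 in 1 of the 12 SMAD4-low libraries, at 0.0344 TPM, and CDSN was at 0 in all 26.

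The relatives of the other members varied by family. At a mean of at least 1 TPM, 14.5% of all genes were higher and 15.8% lower. Of 12 further clade B serpins 5 were higher, 1 lower and 6 overlapped (median difference 1.05; 4, 1 and 2 of the 7 at that mean), with SERPINB2 at 21.1 to 241 TPM and SERPINB5, maspin, at 51.8 to 99.5 TPM, against 0 and at most 0.121 TPM. SERPINB6 was lower, at 41.0 to 79.2 against 96.1 to 134 TPM. Of 14 other LY6/uPAR surface proteins 6 were higher, 1 lower and 7 overlapped (median difference 0.70; 5, 1 and 3 of the 9 at that mean), among them the urokinase receptor PLAUR at 30.5 to 369 against 2.82 to 20.1 TPM.

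The 6 other 14-3-3 genes, all with a mean of at least 1 TPM, had a median difference of 0.01. Of these 1 was higher, YWHAB (366 to 539 against 190.0 to 310.0 TPM). YWHAQ was lower (140.0 to 195 against 734 to 1370 TPM), and 4 overlapped. These counts are near the shares of all genes at that mean, 14.5% higher and 15.8% lower. None of 7 genes of FGF-binding proteins and FGF ligands was higher, and FGF2 was lower, at 0.0177 to 0.204 TPM against 10.5 to 18.4 TPM. Only 2 of the 7 had a mean of at least 1 TPM, of which 1 was lower and 1 overlapped, too few to set beside those shares.

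Some markers of cell identity were separated by the same division and others overlapped. The part of any marker in the members' levels was not tested. Of all genes with a mean of at least 1 TPM, 14.5% were higher without overlap and 15.8% lower. The summed TPM of 5 mesenchymal-like markers was 12.5 to 129 in the SMAD4-low and 3130 to 4570 in the SMAD4-high libraries, with 3 of 5 lower in the SMAD4-low ones without overlap, 1 higher and 1 overlapping. Of 5 epithelial markers 2 were higher in the SMAD4-low libraries, CDH1 and EPCAM, and 3 overlapped, with summed ranges of 2250 to 4960 and 2030 to 8410 TPM. The 5 immune markers summed to 5.71 to 50.3 and 44.5 to 141 TPM, and the defining marker PTPRC was at most 0.535 TPM in any library. Markers of endothelium summed to 3.16 to 17 and 0.321 to 5.39 TPM, with 2 of 3 higher in the SMAD4-low libraries, and those of acinar and islet cells to at most 0.948 TPM.

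The labels, which give the only groups of the design, were compared with edgeR's quasi-likelihood test, with Benjamini-Hochberg adjustment over all genes tested. Over the 26 libraries 7 members could be tested and 0 were called, as were 0 of 16008 genes (0.0%). A call needed an adjusted p below 0.05 together with a log2 fold change beyond 1 in either direction. An unadjusted p under 0.05 was reached by 367 genes and 0 members. DESeq2 called 2 genes and limma 0, none of them members. Each label holds libraries of both SMAD4 sets, so genes that differ between the sets vary widely within a label. This test could therefore hardly call such a member, as for TP63 with a log2 fold change of 0.259 (SE 1.38). With the SMAD4 set as a covariate edgeR called 0 of 16800 genes, with 1263 genes and 1 of 9 members at an unadjusted p under 0.05. Within the SMAD4-low libraries, 5 labelled BxPC3 against 7 labelled Panc-1, 9 members were tested and 0 called, against 0.0% of 16124 genes. There 1840 genes and 0 members had an unadjusted p under 0.05, the smallest adjusted p was 0.067, and DESeq2 called 11 genes, limma 0, and neither called a member. Within the SMAD4-high libraries SFN alone of the members passed the filter, and 0 of 15161 genes were called (0.0%), with 700 at an unadjusted p under 0.05, 1 called by DESeq2 and 0 by limma.

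Since SMAD4, VIM and CDH1 went against the labels of 14 libraries, these comparisons are between labels and may not be between the lines named. In the SMAD4-low libraries LY6D had the largest estimate between the labels among the members tested, a log2 fold change of 1.18 (SE 0.576) toward the libraries labelled Panc-1, with an adjusted p of 0.451 in edgeR. SERPINB3 and SPRR1B were estimated lower in the libraries labelled Panc-1, by log2 fold changes of -1.02 (SE 0.765, edgeR adjusted p = 0.616) and -0.83 (SE 0.666, edgeR adjusted p = 0.638). None of these differences passed the test against the spread between libraries. For SFN the log2 fold change was 0.35 (SE 0.223) in the SMAD4-low and 0.04 (SE 0.193) in the SMAD4-high libraries. Whether the label effect itself differed between the sets was tested with an interaction term, and 0 of 17456 genes passed in edgeR, with 1357 at an unadjusted p under 0.05 and 0 called by limma. SOX2 was the member at an unadjusted p under 0.05 (0.0154), with an interaction log2 fold change of 4.36 (SE 1.68) and an edgeR adjusted p of 0.615, and it includes the value of library 23.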

How the data were processed

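Polyadenylated RNA of 26 SCDCLs was sequenced from both ends in strand-specific libraries. The authors assigned reads to human transcripts with kallisto 0.46.1 (Ensembl annotation of GRCh38), and the table of 41078 genes they deposited gives TPM, estimated counts remade from TPM and transcript length (expected counts that need not be whole, not normalized between libraries) and 30 further estimates per library that kallisto made from redrawn reads, all of which were used. The 26 columns of transcript length were not used. Of the identifiers, 36315 matched a symbol in GENCODE 44, which also gave the positions.

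The members and lists were chosen with earlier results of these data known. Members, up to 4 genes of each list with the highest median TPM, and the 3 genes nearest to each member are named, except that some genes of the lists and 1 motif searched are not reported here. Levels and ranges used TPM, with a floor of 3 estimated counts per library, and SDs and correlations used log2(TPM + 1). A precision beyond counting was not available, since each clone has 1 library, and counting error limits genes with few counts. Permutation tests used 100000 permutations, and adjusted p-values covered all pairs of both SMAD4 sets.

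Labels were compared on rounded estimated counts with edgeR 4.0.16 (TMM, filterByExpr, quasi-likelihood test), with R 4.3.3, DESeq2 1.42.0 and limma 3.58.1 as alternatives. Python 3.11.15 with numpy 2.4.6, pandas 2.3.3, scipy 1.17.1 and matplotlib 3.10.9 was used otherwise. Shared sequence was counted as 31-base words of annotated transcripts. Other alternatives were CPM, pseudocounts of 0.1 and 5, other filters, the SMAD4 set as a covariate, centring within labels and leaving out each library in turn. The test between labels and the correlations were tested on simulated data. Response to gemcitabine and protein data were not analysed here.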

Additional observations from a re-analysis of the deposited data

Results flagged for a closer look

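A single library stood apart from the others of its label and SMAD4 set for 2 members. SOX2 was at 6.95 TPM in library 23, a SMAD4-high library labelled BxPC3, and the nearest of the other 6 such libraries had 0.0442 TPM, so that the gap took 0.979 of the range of log2(TPM + 1). FGFBP1 was at 6.43 TPM in the same library and at 0.603 TPM in the nearest one, a gap of 0.78 of the range. In all, 24 groups of libraries were examined in this way, of which chance flags about 1 in 20.

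The other members were not raised alike in library 23. It had 200.3 TPM of SFN, above the 61.9 to 139 TPM of the other SMAD4-high libraries. TP63 was at 0.198 TPM there, and SPRR1B, SPRR3, SERPINB3 and TRIM29 were at 0. The desmosomal cadherin gene DSC3 was at 1.08 TPM against 0.00911 to 0.277 TPM. VIM was at 4530 TPM, above the 3050 to 4380 TPM of the others, and CDH1 was at 2.45 TPM, within their 0.338 to 7.74 TPM. These genes beside the members were chosen after their values had been seen.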

How the results depend on the processing

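None of the 7 correlations with an unadjusted p under 0.05 changed sign under the alternatives run, but pairs with a larger p did, such as TP63 and SPRR1B, with r = -0.0345 and with CPM 0.115, and SERPINB3 and FGFBP1, with r = 0.316 and without the 2 farthest libraries -0.156. The count of correlated pairs among the SMAD4-low libraries, 0 of 28, became 1 without the 2 libraries farthest from the median (TP63 and TRIM29) and 1 with values centred within each label (SERPINB3 and TRIM29, r = -0.836, permutation adjusted p = 0.0185), and lay between 0 and 1 with each library left out. The 1 arose without library 7, labelled Panc-1 (SOX2 and SPRR1B, r = -0.86, permutation adjusted p = 0.0162). The cause was not tested.

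With a pseudocount of 0.1 the SDs rose, as its construction implies for low values, to 1.22 for SOX2, 0.514 for SPRR3, 0.859 for IVL and 1.52 for SERPINB3, and with CPM that of SPRR3 was 0.122. The count of separated members, 9, was 10 without library 23, by construction, since that library alone made SOX2 overlap. With CPM it was 9. No member was called between labels by edgeR, DESeq2 or limma under any setting run. Leaving out each library in turn was run for these calls with edgeR only, and called no member. Of the alternatives, 109 values that answer a comparison and 143 for single genes or pairs kept their direction and side of the threshold.

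SPRR3, IVL and SERPINB3 rest on few counts, so differences between clones under a few counts were not detectable at this depth. Each clone has 1 library, and differences between clones and between cultures of a clone cannot be told apart.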
